A study of Mus musculus with 27 samples.

Results

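The costimulatory and checkpoint ligands of macrophages, with a receptor that holds the macrophage itself in check, were followed through irradiation and polarization of mouse bone marrow-derived macrophages. The 7 genes were Cd80, Cd86, Cd40, Cd274, Pdcd1lg2, Icosl and Cd200r1, chosen by symbol among the 19069 entries with a symbol, and all 7 were among the 13297 genes tested. The CD28 ligands CD80 and CD86 give T cells the costimulatory signal that accompanies antigen, and the same proteins bind the inhibitory receptor CTLA-4. ICOSL engages ICOS on activated T cells, and CD40 receives CD40L from helper T cells and licenses the antigen-presenting cell. PD-L1 (Cd274) and PD-L2 (Pdcd1lg2) engage PD-1 and restrain T cells. CD200R1 is an inhibitory receptor of myeloid cells for CD200; it is a receptor rather than a ligand, and its signal acts on the macrophage itself.

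Marrow cells of C57BL/6 mice, taken from the femur and the tibia, received 5 Gy from a FLASH proton beam, 5 Gy from a standard proton beam, or no irradiation. FLASH beams deliver the dose at an ultra-high rate. The irradiation came before differentiation: the cells were then grown with CSF-1, the macrophage growth factor, at 10 ng/ml for 7 days, and all groups shared this step. For 2 further days they were kept in 100 ng/ml LPS, a bacterial cell wall component (M1), in 20 ng/ml IL-4, a type 2 cytokine (M2), or in control medium (M0). The 3 arms and 3 states make 9 groups of 3 libraries, 27 in all, of bulk RNA. The labels do not say whether the libraries of a group came from separate cultures or mice, so the p-values reflect only how these libraries spread, which may be technical variation. In bulk RNA, fewer cells of a type and less RNA per cell cannot be told apart.

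Values are CPM, reads scaled to a common library total, as the authors deposited them; levels of different genes are not compared, because the values are not divided by transcript length. The step between low values was worth 1 read, 0.0373 to 0.0487 CPM, which gave 20677700 to 25842800 assigned reads per library. Of the p53 target genes Cdkn1a, Phlda3, Mdm2 and Ccng1, which rise after DNA damage, 4 of 4 were higher after irradiation when the 3 states were averaged. Of all 13297 tested genes, 752 were higher and 889 lower in that comparison over 27 libraries, and 1463 and 1540 over 22. The 8 macrophage markers summed to 11979 to 27404 CPM in FLASH, 12709 to 26242 CPM in standard and 6737 to 27609 CPM in non-irradiated libraries, and none of the 8 was at 0 in any library. Most tested markers of several other marrow-derived cells were lower after irradiation in the mean of the states: 6 of 8 tested dendritic cell markers, 8 of 8 B-lineage markers, 9 of 10 neutrophil markers and 3 of 3 mast cell and basophil markers passed the test downward. Of the T and NK cell markers 2 of 4 tested were lower, and the sum of all 9 overlapped between arms, at 23.3 to 111 CPM in FLASH, 25.5 to 101 CPM in standard and 9.15 to 179 CPM in non-irradiated libraries. In M2 alone the sum was 23.3 to 57.1, 25.5 to 40.1 and 9.15 to 28.4 CPM in that order. Much of it was Cd4, at 21.5 to 109 CPM in irradiated and 4.42 to 172 CPM in non-irradiated libraries. Every other marker of the list was at 5.12 CPM or below, so the overlap describes mainly Cd4.

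The state of each library was compared with its label by a score for LPS, from 2313 genes, and a score for IL-4, from 1306 genes. The genes were those that responded in non-irradiated cells, without the 7 genes described here; a score of 0 is the mean of non-irradiated M0 libraries and 1 that of non-irradiated M1 or M2 libraries. Of the 27 libraries 22 followed their labels and 5 did not, all 5 being replicate 1 of an irradiated group. In the titles each replicate number goes with a code that all 9 groups share and whose meaning is not stated, so these 5 carry the same code. The library labelled FLASH M0 replicate 1 had an IL-4 score of 0.67. The library labelled FLASH M1 replicate 1 had an LPS score of 0.09. The library labelled standard M1 replicate 1 scored 0.20 for LPS and 0.78 for IL-4. The libraries labelled FLASH M2 replicate 1 and standard M2 replicate 1 had LPS scores of 0.80 and 0.81. Irradiated libraries that followed their labels scored 0.80 to 0.83 for IL-4 in M2 and 0.705 to 0.80 for LPS in M1. Non-irradiated libraries, whose means define 1, scored 0.98 to 1.03 and 0.95 to 1.07 in the same order. The score genes were also chosen by their response in non-irradiated libraries, so lower scores in irradiated libraries are partly set by that choice. Groups were kept as labelled, and most results for the 7 genes are given over all 27 libraries and over the 22 that followed their labels. Other genes of the same pathways, described further below, are mostly given over 27 libraries only. The set of 22 was chosen from the libraries' own expression, so a larger response of irradiated cells in it is partly set by that choice.

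The genes for the PD-1 ligands lie next to each other on mouse chromosome 19, with no RefSeq gene between them, and their levels separated the LPS and IL-4 states in opposite ways. RefSeq promoter windows (250 bases before to 50 after the gene start, build GRCm38.p6) were held for 4 of the 7 genes (Cd80, Cd274, Pdcd1lg2 and Icosl) and not for Cd86, Cd40 and Cd200r1. The windows of the PD-1 ligand genes are shown because these neighbours differed in opposite directions between the LPS and IL-4 states; capitals mark matches to the motifs searched, on either strand. Both windows are on the plus strand, at chr19:29367188-29367487 for Cd274 and chr19:29410669-29410968 for Pdcd1lg2.
Cd274: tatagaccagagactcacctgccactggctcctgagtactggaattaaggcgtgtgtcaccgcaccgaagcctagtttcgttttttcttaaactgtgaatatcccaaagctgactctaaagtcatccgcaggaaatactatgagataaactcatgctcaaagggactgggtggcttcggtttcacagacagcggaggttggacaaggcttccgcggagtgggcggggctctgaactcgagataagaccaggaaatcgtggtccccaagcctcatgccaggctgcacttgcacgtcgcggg
Pdcd1lg2: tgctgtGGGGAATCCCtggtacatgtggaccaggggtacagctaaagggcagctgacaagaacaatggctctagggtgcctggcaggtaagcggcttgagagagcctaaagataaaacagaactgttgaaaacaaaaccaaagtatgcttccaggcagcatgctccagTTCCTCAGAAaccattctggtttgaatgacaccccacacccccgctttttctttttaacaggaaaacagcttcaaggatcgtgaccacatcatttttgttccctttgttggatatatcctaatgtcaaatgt

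The motifs searched were a STAT6-type element (TTCNNNNGAA), a GAS element bound by STAT factors (TTCNNNGAA), an ISRE core (GAAANNGAAA), a loose NF-kappaB element (GGGNNNNNCC) and a PU.1 core (GAGGAA). The Pdcd1lg2 window held a STAT6-type match starting at position -82 from the gene start, a PU.1 core on the minus strand that lies inside the same bases, and an NF-kappaB match at -244. The Cd274 window held no match to any of the 5. Over 32851 RefSeq windows of the same length the STAT6-type element was found in 6.95%, the PU.1 core in 28.3%, the NF-kappaB element in 50.8%, the GAS element in 8.3% and the ISRE core in 3.44%. The Cd80 and Icosl windows each held 2 NF-kappaB matches and none of the other 4 motifs. A match describes letters only, and an empty window says only that these letters are absent from it.

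**Figure D1:**
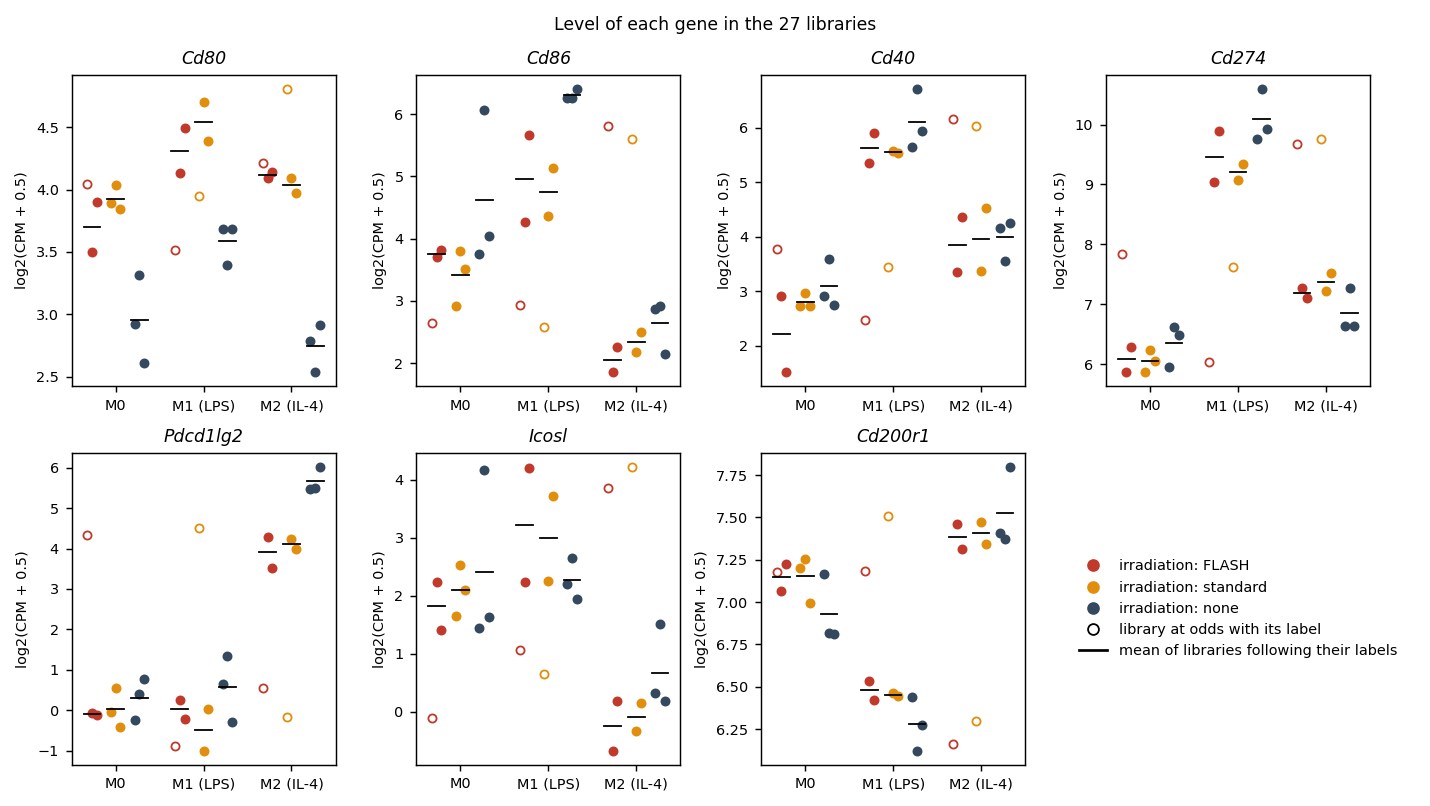
Level of each of the 7 genes in every library, as log2(CPM + 0.5), by state (x axis) and irradiation (colour: FLASH, standard, none, left to right). Points are libraries, open points the 5 libraries that departed from their labels, and bars the mean of the libraries following their labels. The high open Pdcd1lg2 points in M0 and M1 (19.6 and 22.4 CPM) lie above the irradiated M2 libraries that followed their labels (11.03 to 19.03 CPM).

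LPS raised Cd274 and Cd40, and IL-4 raised Pdcd1lg2, in fits over all 27 libraries. With the 22 libraries that followed their labels the calls also included Cd80 and Cd86 (higher with LPS), Cd86 (lower with IL-4) and Cd200r1 (lower with LPS, higher with IL-4). The fold changes of these comparisons hold no irradiated library and are the same in both fits; only their errors differ. Of the 7 genes, 2 passed for LPS over 27 libraries (background 17.4% of all tested genes called) and 5 over 22 libraries (background 34.7%). For IL-4 the counts were 1 of 7 (background 9.83%) and 3 of 7 (background 26%).

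Cd274, which encodes PD-L1, had 867, 1551 and 968 CPM in non-irradiated M1 libraries, against 61.5, 97.9 and 89.1 CPM in non-irradiated M0 libraries. The groups were far apart, and the log2 fold change was 3.74 ± 0.83 (SE; adjusted p = 0.00658 over 27 libraries, 1.27e-08 over 22). With IL-4 it had 98.4, 154 and 99.1 CPM, a range that begins just above the highest M0 library, and the change of 0.49 did not pass (adjusted p = 0.765 and 0.169).

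Pdcd1lg2, which encodes PD-L2, had 43.9, 44.4 and 64.3 CPM in non-irradiated M2 libraries, against 0.345, 0.8197 and 1.22 CPM in M0 libraries. The groups did not overlap, and 2 of the 3 M0 libraries were below 1 CPM. With IL-4 it was higher by a log2 of 5.35 ± 1.33 (adjusted p = 0.0162 and 5.39e-08), the pseudocount of 0.5 holding it down. Over 27 libraries the call was lost without non-irradiated M0 replicate 1 (adjusted p = 0.0528). With LPS it had 1.07, 2.04 and 0.315 CPM, which overlapped M0, and the change of 0.25 did not pass.

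Cd40, the receptor for CD40L, had 49.3, 105 and 61.1 CPM in non-irradiated M1 libraries, against 7.02, 11.6 and 6.22 CPM in M0 libraries. The lowest M1 value was well above the highest M0 value, and the log2 fold change was 3.01 ± 0.84 (adjusted p = 0.0192 and 1.37e-05). Over 27 libraries this call was lost without non-irradiated M0 replicate 1, M0 replicate 3 or M1 replicate 2 (adjusted p = 0.0652, 0.0696 and 0.0828). In M2 libraries Cd40 had 17.5, 11.3 and 18.6 CPM, and the change of 0.91 against M0 did not pass (adjusted p = 0.538 and 0.101).

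Cd86 had 75.8, 76.3 and 84.3 CPM in non-irradiated M1 libraries and 6.81, 7.06 and 3.95 CPM in M2 libraries, against 13.04, 66.7 and 16.05 CPM in M0 libraries. The M0 library of replicate 2 stood near the M1 level while the other two were much lower. Its log2 change with LPS was 1.68 ± 0.97 over 27 libraries (adjusted p = 0.232), and its SE was 0.47 over 22 (adjusted p = 0.0108). With IL-4 it was -1.98 (adjusted p = 0.205 and 0.0054).

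Cd80 differed less between states. It had 12.4, 10.01 and 12.4 CPM in non-irradiated M1 libraries and 6.41, 5.295 and 7.04 CPM in M2 libraries, against 7.097, 9.46 and 5.61 CPM in M0 libraries. The M1 libraries were all above the M0 libraries, by a log2 fold change of 0.64 ± 0.25 (adjusted p = 0.0815 over 27 and 0.0103 over 22), and the M2 libraries overlapped M0 (log2 -0.21, not passed). Without non-irradiated M0 replicate 2 the LPS change also passed over the remaining 26 libraries (adjusted p = 0.0475).

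Icosl had 4.097, 5.77 and 3.37 CPM in non-irradiated M1 libraries and 0.751, 2.37 and 0.644 CPM in M2 libraries, against 2.23, 17.5 and 2.61 CPM in M0 libraries. As for Cd86, M0 replicate 2 stood far above the other M0 libraries. Neither response passed over 27 or 22 libraries (log2 -0.15 with LPS and -1.74 with IL-4; the IL-4 change had adjusted p = 0.384 and 0.0597). Without that library the direction of the LPS change turned, to 0.73.

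Cd200r1 ran the other way from the LPS-raised genes, with 86.4, 69.2 and 76.8 CPM in non-irradiated M1 libraries and 169.7, 165 and 222 CPM in M2 libraries, against 143, 112 and 112 CPM in M0 libraries. No M1 or M2 library overlapped M0, and the shift with LPS was smaller than those of Cd274 and Cd40. The log2 fold changes were -0.65 ± 0.33 with LPS (adjusted p = 0.167 and 0.000532) and 0.60 ± 0.33 with IL-4 (adjusted p = 0.262 and 0.00197). Cd200r1 belongs to a family of similar genes among which reads may be split: over the 27 libraries Cd200r4 ranged from 19.1 to 120 CPM, Cd200r3 from 0 to 7.11 CPM and Cd200r2 from 0 to 0.509 CPM.

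Set directly against each other, LPS-treated and IL-4-treated non-irradiated cells differed in 5 of 7 genes over 27 libraries (background 30.5%) and in 6 of 7 over 22 (background 42.3%). LPS was higher for Cd86 (log2 3.66 ± 0.97, adjusted p = 0.00878), Cd274 (3.25 ± 0.83, 0.00732) and Cd80 (0.84 ± 0.25, 0.0162), and lower for Pdcd1lg2 (-5.09 ± 1.33, 0.00811) and Cd200r1 (-1.25 ± 0.33, 0.00807). Cd40 joined the higher genes over 22 libraries (log2 2.11, adjusted p = 0.0619 over 27 and 0.000296 over 22). It also passed when any of FLASH M1, FLASH M2, standard M1 or standard M2 replicate 1 was left out (adjusted p = 0.0299 to 0.0489). The Cd80 call was lost without non-irradiated M1 replicate 1, M1 replicate 3 or M2 replicate 2 (adjusted p = 0.0516, 0.0536 and 0.0672).

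**Figure D2:**
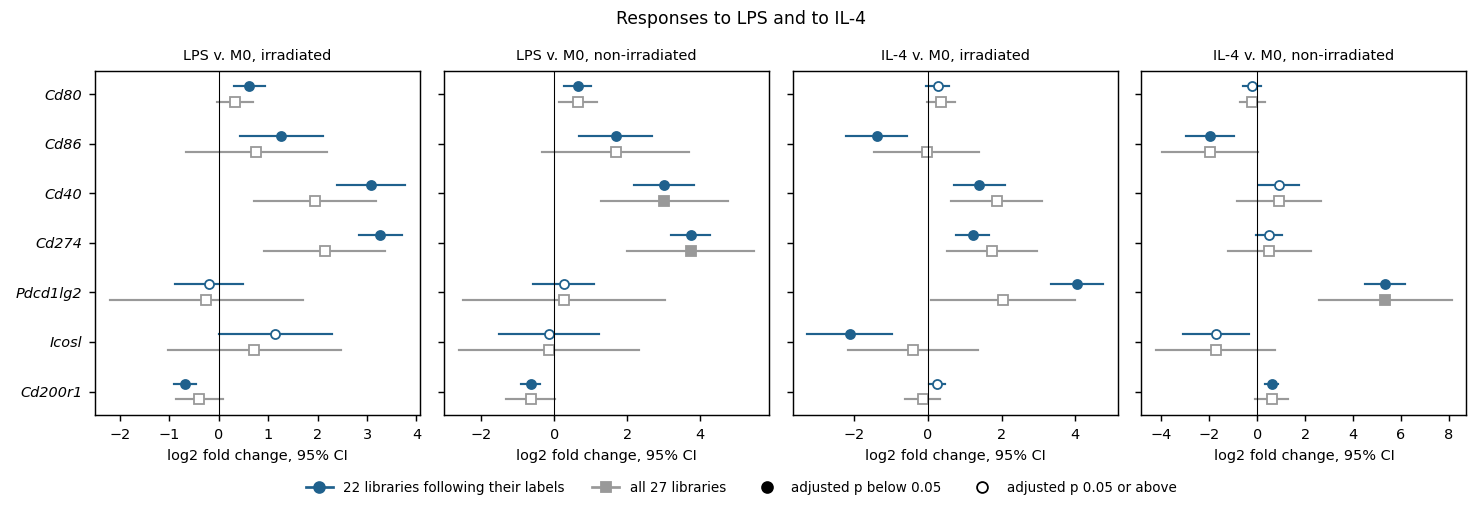
Log2 fold change (x axis) with its 95% confidence interval for each gene under LPS or IL-4 against M0, in irradiated cells (left of each pair) and non-irradiated cells. Circles are fits over the 22 libraries following their labels and squares over all 27, filled where the adjusted p was below 0.05; Cd274 with LPS stands at 3.27 in irradiated and 3.74 in non-irradiated cells over 22 libraries.

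Cd80 was higher in cells irradiated before differentiation, in M0 and M2 over 27 libraries and in all 3 states over 22. Over the mean of the states it was higher by a log2 of 1.001 ± 0.12 (95% interval 0.74 to 1.26; adjusted p = 1.33e-05), and by 1.01 ± 0.10 over 22 libraries (adjusted p = 1.50e-06). Cd86 (-0.98 ± 0.25, adjusted p = 0.0106) and Pdcd1lg2 (-0.93 ± 0.21, adjusted p = 0.00443) were lower in irradiated cells over 22 libraries and did not pass over 27 (adjusted p = 0.257 for Cd86 and 0.434 for Pdcd1lg2). The counts were 1 of 7 over 27 libraries (background 12.3%) and 3 of 7 over 22 (background 22.6%). The other 4 genes did not pass in either fit, with log2 changes over 22 libraries of -0.39 for Cd40, -0.20 for Cd274, -0.15 for Icosl and 0.09 for Cd200r1.

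In M0, Cd80 had 16.1, 10.8 and 14.4 CPM in FLASH libraries and 14.3, 15.9 and 13.8 CPM in standard libraries, against 7.097, 9.46 and 5.61 CPM in non-irradiated libraries. The lowest irradiated library was above the highest non-irradiated library. Cd80 was higher by a log2 of 0.92 ± 0.22 (adjusted p = 0.0189) over 27 libraries and 0.86 ± 0.16 over 22 (0.00253). Over 27 libraries the call was lost without non-irradiated M0 replicate 1 or 3 (adjusted p = 0.0814 and 0.162). It was the only one of the 7 to pass in M0, over 27 libraries (background 4.03%) and over 22 (background 11%).

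In M1, Cd80 had 10.97, 17.1 and 22.02 CPM in FLASH libraries and 14.96, 25.5 and 20.5 CPM in standard libraries, against 12.4, 10.01 and 12.4 CPM in non-irradiated libraries. Only the library labelled FLASH M1 replicate 1, whose LPS score was 0.09, overlapped the non-irradiated range. The log2 fold change was 0.61 ± 0.22 over 27 libraries (adjusted p = 0.112), 0.74 without FLASH M1 replicate 1 (0.0463) and 0.84 ± 0.17 over 22 (0.0043).

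In M2, Cd80 had 18.1, 16.6 and 17.1 CPM in FLASH libraries and 27.6, 16.6 and 15.2 CPM in standard libraries, against 6.41, 5.295 and 7.04 CPM in non-irradiated libraries. The groups did not overlap, with all libraries or among the 22. Cd80 was higher by a log2 of 1.48 ± 0.22 (adjusted p = 0.000749) and 1.33 ± 0.17 over 22 libraries (0.000228); fitted on the M2 libraries alone it missed the threshold (adjusted p = 0.054). The 8 macrophage markers also summed higher in M2, to 11979 to 22320 CPM in FLASH and 12709 to 24476 CPM in standard libraries, against 6737 to 7376 CPM in non-irradiated libraries. In M0 these sums overlapped, at 13069 to 26375 CPM in FLASH and 17843 to 24562 CPM in standard libraries, against 16178 to 20644 CPM in non-irradiated libraries. Much of each sum was Lyz2, which over all states had 7831 to 20397 CPM in irradiated and 2969 to 17854 CPM in non-irradiated libraries. The irradiated ranges include the replicate 1 libraries at odds with their labels. Over the mean of the states 2 of 8 macrophage markers were higher and 1 lower over 27 libraries. Of all 13297 tested genes, 752 were higher and 889 lower there. The part of the macrophage markers in the Cd80 difference was not tested.

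Across all states 16 of 18 irradiated libraries had more Cd80 than the highest non-irradiated library, which was an M1 library at 12.4 CPM. The ranking of group means over the 22 libraries ran from standard M1 (23.003 CPM) and FLASH M1 (19.5 CPM) through FLASH M2, standard M2, standard M0 and FLASH M0 to non-irradiated M1 (11.6 CPM), M0 (7.39 CPM) and M2 (6.25 CPM). Neighbours in that order overlapped except at FLASH M2 over standard M2 and at non-irradiated M1 over M0. The step between the M2 groups was 16.6121 over 16.5942 CPM, nearly equal values, with 2 libraries in each group. Over 27 libraries standard M2 stood above FLASH M2 and the 2 groups overlapped.

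Cd86 lay lower after irradiation in M1. It had 7.11, 18.7 and 50.2 CPM in FLASH libraries and 5.497, 20.04 and 34.5 CPM in standard libraries, against 75.8, 76.3 and 84.3 CPM in non-irradiated libraries. Every irradiated M1 library was below every non-irradiated one, also among the 22. The log2 fold change was -2.15 ± 0.84 over 27 libraries (adjusted p = 0.149) and -1.45 ± 0.44 over 22 (0.0483). With replicates 2 and 3 alone it was -1.48 and did not pass (0.102). Among the 22, LPS scores were also lower in irradiated M1 libraries, at 0.705 to 0.80 against 0.95 to 1.07 in non-irradiated ones. That gap is partly set by the choice of score genes in non-irradiated libraries, so its size is no measure of a weaker response. Whether the Cd86 difference goes beyond that of the LPS response genes was not tested.

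In M0, Cd86 had 5.73, 12.5 and 13.6 CPM in FLASH libraries and 7.04, 13.5 and 10.97 CPM in standard libraries, against 13.04, 66.7 and 16.05 CPM in non-irradiated libraries. The highest 2 irradiated libraries were above the lowest non-irradiated one, so the ranges overlapped. In M2 it had 55.4, 3.11 and 4.29 CPM in FLASH libraries and 47.9, 4.03 and 5.17 CPM in standard libraries, against 6.81, 7.06 and 3.95 CPM in non-irradiated libraries. The 2 high values are those of the M2-labelled libraries with high LPS scores, and neither state passed (over 22 libraries log2 -1.04 with adjusted p = 0.131 in M0, and -0.45 with 0.609 in M2).

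Dendritic and B cells also carry CD86, and their markers differed between the same groups. The 9 dendritic cell markers summed to 1.79 to 10.7 CPM in FLASH, 1.80 to 7.09 CPM in standard and 6.94 to 28.1 CPM in non-irradiated libraries. The 9 B-lineage markers summed to 8.04 to 21.5, 6.39 to 25.0 and 33.3 to 150 CPM in the same order. Cd209a was at 0 in 11 irradiated and 3 non-irradiated libraries and Clec9a in 2 irradiated libraries. In M1 the dendritic cell markers summed to 2.66 to 6.33 CPM in FLASH and 2.64 to 6.99 CPM in standard libraries, against 15.5 to 22.8 CPM in non-irradiated libraries. Their part in the Cd86 difference was not tested.

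The ratio of Cd80 to Cd86 within a library, which no library scaling can move, was chosen for display after the values were seen. In M1 it was 1.54, 0.914 and 0.439 in FLASH libraries and 2.72, 1.27 and 0.594 in standard libraries, against 0.163, 0.131 and 0.147 in non-irradiated libraries. In M0 it was 2.8, 0.864 and 1.06 in FLASH and 2.03, 1.18 and 1.26 in standard libraries, against 0.544, 0.142 and 0.350 in non-irradiated libraries. Irradiated and non-irradiated libraries did not overlap in either state. In M2 the ratio was 0.326, 5.33 and 4 in FLASH and 0.575, 4.11 and 2.94 in standard libraries, against 0.942, 0.750 and 1.78 in non-irradiated libraries, the 2 low irradiated values being the libraries at odds with their M2 labels.

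**Figure D3:**
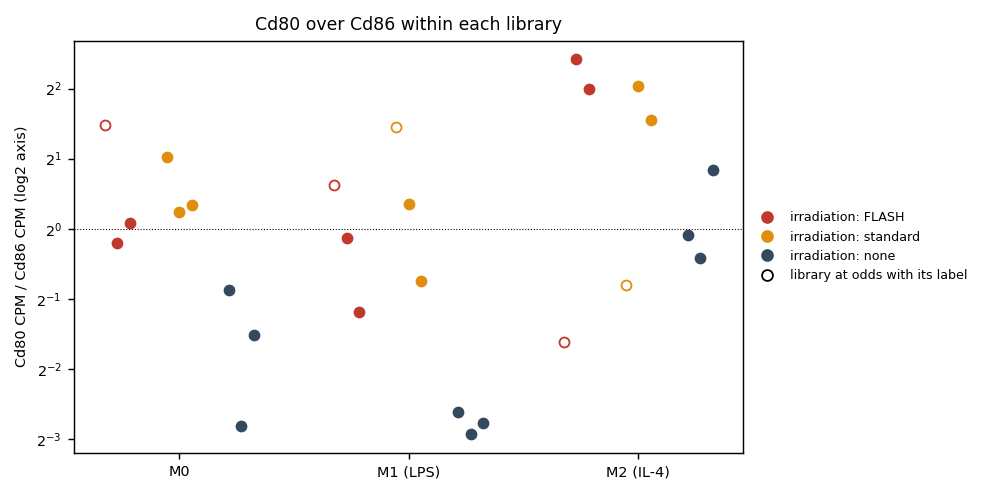
Cd80 CPM divided by Cd86 CPM in each library (y axis, log2 scale) by state and irradiation (FLASH, standard, none, left to right). Open points are libraries at odds with their labels; non-irradiated M1 libraries sit between 0.131 and 0.163 and irradiated M1 libraries at 0.439 or above.

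Pdcd1lg2 was lower after irradiation where IL-4 had raised it. In M2 it had 0.955, 19.03 and 11.03 CPM in FLASH libraries and 0.391, 18.3 and 15.5 CPM in standard libraries, against 43.9, 44.4 and 64.3 CPM in non-irradiated libraries. The highest irradiated library was below the lowest non-irradiated library, also among the 22, whose irradiated values were 11.03 to 19.03 CPM. The log2 fold change was -2.92 ± 1.15 over 27 libraries (adjusted p = 0.184) and -1.65 ± 0.37 over 22 (0.0128); with replicates 2 and 3 alone it was -1.74 (0.0591). Dendritic cells also carry PD-L2, and in M2 their markers summed to 4.72 to 10.7 CPM in FLASH and 5.49 to 7.09 CPM in standard libraries, against 6.94 to 12.1 CPM in non-irradiated libraries, overlapping ranges; their part was not tested. With Cd80, Pdcd1lg2 made 2 of 7 called in M2 over 22 libraries (background 6.9%), against 1 of 7 over 27 (background 3%). Among the 22, IL-4 scores were also lower in irradiated M2 libraries, at 0.80 to 0.83 against 0.98 to 1.03 in non-irradiated ones. As with the LPS scores, that gap is partly set by the choice of score genes in non-irradiated libraries. Whether the Pdcd1lg2 difference goes beyond that of the IL-4 response genes was not tested.

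In M0, Pdcd1lg2 had 19.6, 0.456 and 0.414 CPM in FLASH and 0.467, 0.963 and 0.244 CPM in standard libraries, and in M1 0.0433, 0.686 and 0.363 CPM in FLASH and 22.4, 0 and 0.512 CPM in standard libraries. The values of 19.6 and 22.4 CPM belong to the libraries labelled FLASH M0 and standard M1 replicate 1, whose IL-4 scores were above 0.5; all other irradiated M0 and M1 libraries were under 1 CPM. Standard M1 replicate 2 had 0 reads, which allows up to 0.124 CPM from a count of 3 (counting error only).

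Cd274 in M1 had 64.8, 527 and 947 CPM in FLASH libraries and 197, 539 and 646 CPM in standard libraries, against 867, 1551 and 968 CPM in non-irradiated libraries. FLASH M1 replicate 3 reached into the non-irradiated range and the others lay below it. The log2 fold change was -1.59 ± 0.72 over 27 libraries (adjusted p = 0.217) and -0.76 ± 0.24 over 22 (0.0526), short of the threshold; with replicates 2 and 3 alone it was -0.92 (adjusted p = 0.0491). In M1 the members called were 0 of 7 over 27 libraries by limma (background 5.2%), with 3 at an unadjusted p below 0.05 (as were 20.2% of all tested genes), and 2 of 7 over 22, Cd80 and Cd86 (background 9.78%). The lower LPS scores of irradiated M1 libraries, given above for Cd86 with their limit, apply to Cd274 as well.

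In M0, Cd274 had 229.7, 58.2 and 77.2 CPM in FLASH and 57.7, 74.9 and 66.1 CPM in standard libraries, against 61.5, 97.9 and 89.1 CPM in non-irradiated libraries. In M2 it had 820.0, 153 and 137 CPM in FLASH and 868, 149 and 184 CPM in standard libraries, against 98.4, 154 and 99.1 CPM in non-irradiated libraries. The 229.7 CPM of FLASH M0 replicate 1 and the 820.0 and 868 CPM of the M2-labelled replicate 1 libraries are those at odds with their labels, and without them the ranges overlapped in both states.

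**Figure D4:**
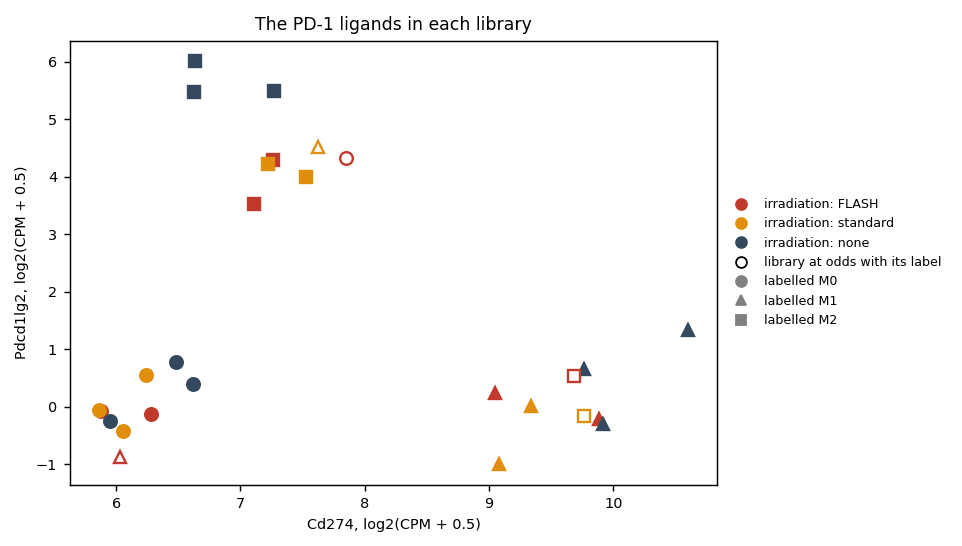
Cd274 (x axis) against Pdcd1lg2 (y axis), both as log2(CPM + 0.5), in each of the 27 libraries; symbol shape gives the labelled state, colour the irradiation, and open symbols the 5 libraries that did not follow their labels. The FLASH M2 and standard M2 replicate 1 libraries (820.0 and 868 CPM of Cd274, under 1 CPM of Pdcd1lg2) lie among the M1 libraries, and the irradiated M2 libraries with 11.03 to 19.03 CPM of Pdcd1lg2 lie below the non-irradiated ones.

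Cd40, Icosl and Cd200r1 did not pass in any single state, over 27 or 22 libraries. In M1, Cd40 had 5.03, 40.4 and 58.96 CPM in FLASH and 10.4, 47.3 and 45.7 CPM in standard libraries, against 49.3, 105 and 61.1 CPM in non-irradiated libraries. The low first values belong to the 2 libraries labelled M1 with LPS scores below 0.5; over 22 libraries the difference was -0.51 with a 95% interval of -1.28 to 0.27. In M0 Cd40 had 13.1, 7.01 and 2.35 CPM in FLASH and 6.11, 7.26 and 6.14 CPM in standard libraries, against 7.02, 11.6 and 6.22 CPM in non-irradiated libraries. In M2 it had 71.3, 9.69 and 20.02 CPM in FLASH and 64.6, 9.86 and 22.6 CPM in standard libraries, against 17.5, 11.3 and 18.6 CPM in non-irradiated libraries, and the ranges overlapped in both states.

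Icosl in M1 had 1.604, 4.24 and 17.9 CPM in FLASH and 1.08, 4.298 and 12.7 CPM in standard libraries, against 4.097, 5.77 and 3.37 CPM in non-irradiated libraries. Replicate 3 of both irradiated groups was above the non-irradiated range and replicate 2 within it. In M2 it had 13.96, 0.1298 and 0.638 CPM in FLASH and 18.2, 0.291 and 0.613 CPM in standard libraries, against 0.751, 2.37 and 0.644 CPM in non-irradiated libraries, so that the 4 irradiated libraries following their labels all lay below the lowest non-irradiated one (log2 -0.84, adjusted p = 0.458). In M0 it had 0.435, 4.23 and 2.16 CPM in FLASH and 2.66, 5.25 and 3.802 CPM in standard libraries, against 2.23, 17.5 and 2.61 CPM in non-irradiated libraries. Icosl reached 1 CPM in 20 and Pdcd1lg2 in 12 of the 27 libraries; the other 5 genes did so in all 27.

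Cd200r1 had 144, 134 and 149 CPM in FLASH M0 and 147, 152 and 127 CPM in standard M0 libraries, against 143, 112 and 112 CPM in non-irradiated M0 libraries. In M1 it had 145, 92.2 and 85.4 CPM in FLASH and 181, 87.6 and 86.7 CPM in standard libraries, against 86.4, 69.2 and 76.8 CPM in non-irradiated libraries. In M2 it had 71.04, 176 and 159 CPM in FLASH and 78.1, 177 and 162 CPM in standard libraries, against 169.7, 165 and 222 CPM in non-irradiated libraries. Replicate 1 of the irradiated M1 groups lay above, and of the irradiated M2 groups below, every other library of its labelled state. Over 22 libraries the mean-of-states interval was -0.05 to 0.23, the narrowest of the 7.

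**Figure D5:**
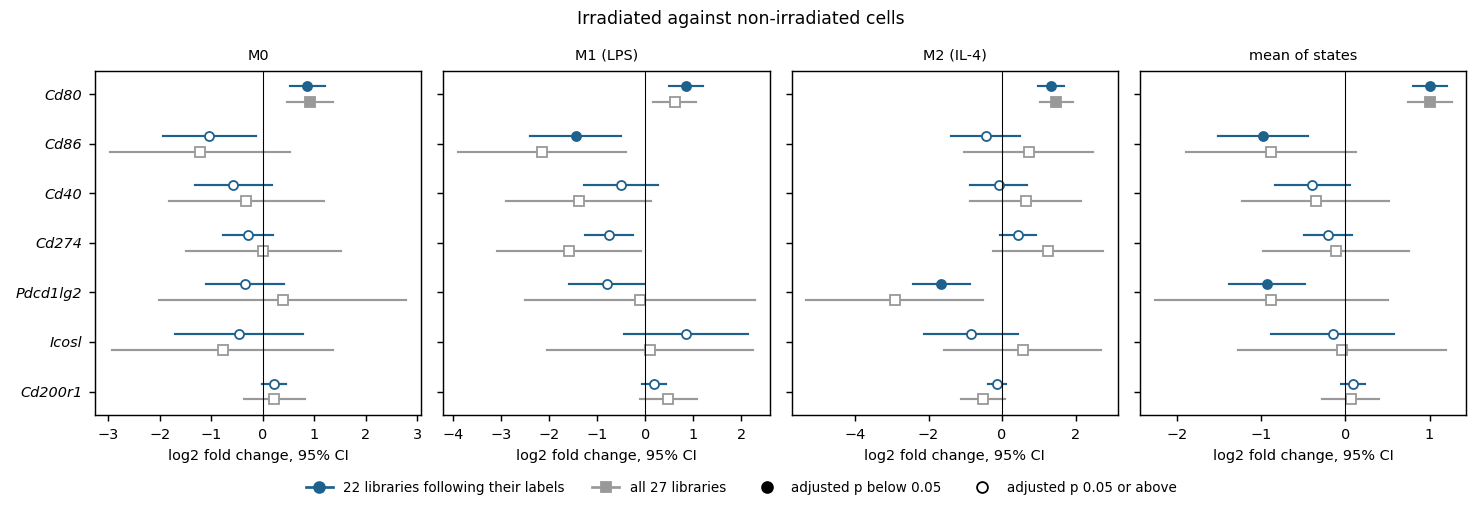
Log2 fold change of irradiated over non-irradiated cells (x axis) with its 95% confidence interval for each gene in M0, M1, M2 and over their mean. Circles are fits over the 22 libraries following their labels and squares over all 27, filled where the adjusted p was below 0.05; Cd80 lies to the right of 0 in all 4 panels, at 1.01 in the mean over 22 libraries.

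FLASH and standard irradiation are shown against the same non-irradiated libraries, so their changes share that reference. Cd80 was higher by 0.91 ± 0.14 after FLASH (adjusted p = 0.00033, background 7.72%) and by 1.09 ± 0.14 after standard irradiation (4.45e-05, background 7.88%) over the mean of the states, with 0.95 and 1.07 over 22 libraries. Over 22 libraries Pdcd1lg2 was lower after each mode (-0.90, adjusted p = 0.0256, with FLASH and -0.96, 0.0124, with standard). The log2 change of Cd86 was -0.93 with FLASH (adjusted p = 0.0512, not passed) and -1.03 with standard irradiation (0.0239, passed). The counts over 22 libraries were 2 of 7 with FLASH (background 14.3%) and 3 of 7 with standard irradiation (background 17.9%).

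Set against each other, FLASH and standard cells differed in none of the 7 genes by limma, with 0 at an unadjusted p below 0.05, over 27 and over 22 libraries. The background was 0% in both fits, with 393 genes over 27 libraries and 1071 over 22 at an unadjusted p below 0.05. For Cd80 the FLASH minus standard difference was -0.18 (95% interval -0.48 to 0.12) over 27 and -0.12 (-0.38 to 0.14) over 22 libraries. Over 22 libraries the intervals were -0.18 to 0.18 for Cd200r1 and -0.34 to 0.40 for Cd274. They were wider for Pdcd1lg2 (-0.52 to 0.64), Cd40 (-0.78 to 0.36), Cd86 (-0.60 to 0.78) and Icosl (-1.01 to 0.89). Over 22 libraries, a set chosen from expression, log2 differences of 1 or more in either direction lay outside the interval for 6 of the 7 genes and inside it for Icosl. Over 27 libraries they lay outside it for 2 of 7 only, Cd80 and Cd200r1 (-0.44 to 0.34), the intervals being -0.97 to 1.04 for Cd274, -1.13 to 0.88 for Cd40, -1.13 to 1.202 for Cd86, -1.60 to 1.60 for Pdcd1lg2 and -1.71 to 1.15 for Icosl. Differences within the intervals were not excluded by these libraries.

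In irradiated cells the responses to LPS and IL-4 passed for none of the 7 genes over 27 libraries by limma, and for 5 genes each over 22. The backgrounds were 1.11% for LPS and 6.52% for IL-4 over 27 libraries. At an unadjusted p below 0.05, 2 of 7 passed for LPS and 3 of 7 for IL-4 over 27 libraries, beside 26% and 21.2% of all tested genes. Over 22 libraries the backgrounds of called genes were 36.9% and 25.8%. With LPS over 22 libraries, Cd274 (3.27 ± 0.21, adjusted p = 3.72e-09), Cd40 (3.08 ± 0.33, 1.10e-06), Cd86 (1.27 ± 0.39, 0.0175) and Cd80 (0.62 ± 0.15, 0.00309) were higher and Cd200r1 (-0.68 ± 0.10, 4.89e-05) was lower. With IL-4, Pdcd1lg2 (4.05 ± 0.33, 1.17e-07), Cd40 (1.40 ± 0.33, 0.00415) and Cd274 (1.22 ± 0.21, 0.000371) were higher, and Icosl (-2.13 ± 0.54, 0.00751) and Cd86 (-1.39 ± 0.39, 0.0149) were lower. Using replicates 2 and 3 of every group, 5 genes also passed for each response. That choice goes by label, but it leaves out the same 5 libraries and so is no separate support.

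Over 27 libraries 1 library decided some of these calls. The LPS response of Cd40 and Cd274 passed without any one of the 5 libraries at odds with their labels (adjusted p = 0.00502 to 0.0488 for Cd40 and 0.00248 to 0.0415 for Cd274). The IL-4 response of Cd274 passed without FLASH M0 or FLASH M1 replicate 1 (0.0402 and 0.0284). That of Cd40 passed without FLASH M0, FLASH M1 or standard M1 replicate 1, or FLASH M2 or standard M2 replicate 2 (0.0255 to 0.0496).

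Whether irradiation changed the size of a response was tested as an interaction, and none of the 7 genes passed by limma in either fit, with 0 at an unadjusted p below 0.05 over 27 libraries. The backgrounds were 0.278% for LPS and 0.0451% for IL-4 over 27 libraries, and 2% and 0.0451% over 22. Over 22 libraries 3 IL-4 estimates had 95% intervals that left out 0 before adjustment, those of Pdcd1lg2 (-1.30, -2.39 to -0.21, adjusted p = 0.47), Cd274 (0.72, 0.03 to 1.42, adjusted p = 0.531) and Cd200r1 (-0.35, -0.69 to -0.003, adjusted p = 0.542). That Cd40 and Cd274 passed with IL-4 in irradiated and not in non-irradiated cells is therefore no shown difference between them.

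The order of group means over the 22 libraries differed by gene. Cd86 was highest in non-irradiated M1 (78.8 CPM), beyond the spread of the next group, FLASH M1 (34.4 CPM), and lowest in FLASH M2 (3.70 CPM), with 1 more step without overlap, at standard M1 over FLASH M0. Cd274 ran from non-irradiated M1 (1129 CPM) through FLASH M1 (737 CPM) and standard M1 (593 CPM), each overlapping its neighbour, to a step without overlap at the M2 groups (117 to 166 CPM), another below non-irradiated M2, and to standard M0 (66.2 CPM). Cd40 had the same 3 groups on top (71.7, 49.7 and 46.5 CPM), again with a step without overlap below them. Pdcd1lg2 was highest in non-irradiated M2 (50.9 CPM), then in standard M2 (16.9 CPM) and FLASH M2 (15.0 CPM), with steps without overlap above and below this overlapping pair. Cd200r1 ran from non-irradiated M2 (185.7 CPM) to non-irradiated M1 (77.5 CPM), and neighbours overlapped except at FLASH M2 over standard M0, non-irradiated M0 over FLASH M1 and standard M1 over non-irradiated M1. Icosl ran from FLASH M1 (11.1 CPM) to FLASH M2 (0.384 CPM), with overlap between neighbours except at non-irradiated M2 over standard M2.

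The other genes of the same pathways were counted from lists of general knowledge, beside the share of all tested genes called in each direction. With LPS in non-irradiated cells (over all tested genes 9.87% higher and 7.54% lower, median log2 -0.01), 4 of 13 tested other immunoglobulin-family and related ligands were higher and 2 lower, with a list median of 0.23. They included Lgals9, which encodes galectin-9 (log2 2.29 ± 0.52, adjusted p = 0.00736), and Cd200, the ligand of CD200R1 (2.04 ± 0.41, 0.00352), both higher. Cd24a (-1.53 ± 0.31, 0.00402) and the VISTA gene Vsir, listed as 4632428N05Rik (-1.33 ± 0.39, 0.0238), were lower. Of 7 tested TNF-family costimulatory ligands 3 were higher and 0 lower (median 1.41), among them Tnfsf10, which encodes TRAIL (2.73 ± 0.80, 0.0234), and Tnfsf15, which encodes TL1A (2.71 ± 0.88, 0.0388). Of 15 tested genes in a list of inhibitory receptors of myeloid cells and their relatives 6 were higher and 1 lower (median 0.94), with Cd300lf at 4.15 ± 0.95 (0.00741), Slamf7 at 2.41 ± 0.79 (0.0398) and Cd300a at -1.13 ± 0.33 (0.0232).

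Among 12 regulators of the PD-1 ligands 4 were higher and 1 lower with LPS (median 0.59). Socs1, an inhibitor of JAK kinases, was higher (3.94 ± 0.75, 0.00307), while Cmtm4, a PD-L1 partner protein, was lower (-0.90 ± 0.20, 0.0069). In the CD40 pathway 1 of 14 was higher and 0 lower over 27 libraries (median 0.94), namely Tnfaip3, which encodes the NF-kappaB inhibitor A20 (2.05 ± 0.61, 0.0258); over 22 libraries 10 of 14 were higher, against 17.9% of all tested genes. Of the 7 genes for turnover of CD86 and ICOSL, March1, the ubiquitin ligase that removes CD86 from the surface, was higher (1.28 ± 0.41, 0.0361) and the tetraspanin gene Cd81 lower (-0.96 ± 0.25, 0.0144). Of 5 tested T cell counter-receptors Lag3 was higher (1.92 ± 0.47, 0.0102) and Cd28, the receptor of CD80 and CD86, lower (-3.27 ± 0.61, 0.00266). The 9 T and NK cell markers summed to 85.6 to 108.6 CPM in non-irradiated M1 libraries, against 24.5 to 179 CPM in M0 libraries. Among them Cd4 ranged from 4.42 to 172 CPM over the non-irradiated libraries and the other 8 were at 5.12 CPM or below in all 27; their part in these values was not tested. In CD200 receptor signaling 1 of 5 passed, again Cd200.

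With IL-4 in non-irradiated cells (over all tested genes 4.93% higher and 4.9% lower), 2 of 12 PD-1 ligand regulators were higher and 2 lower. Socs1 (3.72 ± 0.75, 0.00516) and the kinase gene Jak2 (1.47 ± 0.45, 0.0414) were higher, and the interferon gamma receptor gene Ifngr1 (-0.68 ± 0.14, 0.00636) and Cmtm6, which protects PD-L1 from degradation (-0.58 ± 0.13, 0.0111), were lower. In the list of inhibitory receptors, which also holds relatives that are not inhibitory, 2 of 15 were higher and 1 was lower. Higher were Cd200r3, an activating relative of CD200R1 (2.45 ± 0.38, 0.00108), and Gp49a (0.75 ± 0.20, 0.0237). The CD47 receptor gene Sirpa was lower (-0.75 ± 0.17, 0.0096). Dok2, an adaptor below CD200R1, was higher (1.94 ± 0.47, 0.0136), the only one of 5 in that list. Tnfsf14 (-1.16 ± 0.30, 0.0189), Cd28 (-2.64 ± 0.61, 0.0114) and Vsir (-1.35 ± 0.39, 0.0311) were the only members called in their lists, all lower. The CD40 pathway had 0 of 14 called by limma over 27 libraries, with 2 at an unadjusted p below 0.05, and the turnover list had 0 of 7, also with 2. Over 22 libraries 1 CD40 pathway gene was higher and 5 were lower, and 2 turnover genes were lower (over all tested genes 13.2% higher and 12.8% lower).

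Over the mean of the states after irradiation (over all tested genes 5.66% higher and 6.69% lower), few companions passed over 27 libraries. Havcr2, which encodes the checkpoint receptor TIM-3, was higher, with 12.3 to 47.4 CPM (median 25.7) in 18 irradiated libraries and 8.79 to 18.3 CPM (median 11.5) in 9 non-irradiated libraries (log2 0.96 ± 0.14, adjusted p = 6.49e-05). Cd81 was higher too, with 27.6 to 68.8 CPM in irradiated and 15.0 to 36.6 CPM in non-irradiated libraries (0.96 ± 0.13, 2.21e-05), the only one called of 7 turnover genes. Gp49a, whose sequence is close to that of its neighbour Lilrb4 so that reads may be split, was higher (0.50 ± 0.10, 0.00226). Cd200r3, an activating relative of CD200R1 carried by mast cells and basophils, was lower (-0.99 ± 0.19, 0.0015), so that 2 of 15 in the inhibitory receptor list were higher and 1 lower. The mast cell and basophil markers summed to 0.323 to 2.42 CPM in FLASH and 0.481 to 2.34 CPM in standard libraries, against 2.697 to 8.71 CPM in non-irradiated libraries, and their part in the Cd200r3 value was not tested.

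Tnfsf14, which encodes LIGHT, was lower, with 0 to 0.927 CPM in irradiated and 0.184 to 3.31 CPM in non-irradiated libraries (-1.56 ± 0.15, 4.06e-07), the only one called of 7 in the TNF family. Cd24a was lower, with 6.04 to 18.2 CPM in irradiated and 9.78 to 36.9 CPM in non-irradiated libraries (-1.05 ± 0.16, 9.29e-05), the only one of 13 in its list. Irf1, a transcription factor that drives Cd274, was lower (-1.05 ± 0.27, 0.0131), as was Cmtm6 (-0.34 ± 0.07, 0.00169), these being 2 of 12 PD-1 ligand regulators. Of 5 tested counter-receptors 3 were lower, among them Tnfrsf9, which encodes CD137 (-1.08 ± 0.28, 0.015), and Lag3 (-0.97 ± 0.23, 0.00867). None of 14 CD40 pathway genes and none of 5 CD200 receptor signaling genes passed by limma over 27 libraries, with 3 and 1 at an unadjusted p below 0.05. Over 22 libraries 1 CD40 pathway gene was higher and 6 were lower, and 2 CD200 receptor signaling genes were lower (over all tested genes 11% higher and 11.6% lower). Tnfsf14, Cd24a and Lag3 are also carried by lymphoid or granulocytic cells. Neutrophil markers summed to 7.42 to 95.2 CPM in irradiated and 42.4 to 911 CPM in non-irradiated libraries. The sum of the T and NK cell markers, much of it Cd4, overlapped as given above. The part of these cells in the values was not tested.

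The genes whose profile over the 27 libraries was most like that of each member were sought among 9287 tested genes that averaged 5 CPM or more; the libraries share groups and states, so the values describe and carry no test. Cd80 had the weakest companions, with Atg12 (r = 0.85), Araf (0.83) and Akr1c13 (0.83). Cd274 had Mlkl (0.98), Mcoln2 (0.97) and Rasgrp1 (0.97), and Cd40 had Rasgrp1 (0.95), Cst7 (0.95) and Tmem209 (0.95). Cd86 had Fam26f (0.95), Mxd1 (0.95) and Ly86 (0.95). Pdcd1lg2 had Flt1 (0.97), Rnase2a (0.97) and Klf4 (0.97), Icosl had Asb2 (0.93), Sephs2 (0.91) and Cd82 (0.91), and Cd200r1 had Vat1 (0.97), Mtss1 (0.97) and Atp6v0a1 (0.97). Among the members themselves Cd40 and Cd274 were most alike (0.93), Cd86 and Icosl followed (0.84), and Cd86 and Cd200r1 were most opposed (-0.91), while the r of Cd80 with any other member lay between -0.37 and 0.46.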

How the data were processed

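Bulk RNA was sequenced from 27 macrophage libraries in 9 groups of 3. Per the submitters' processing notes, the authors used kallisto 0.46.1, which assigns reads to transcripts without full alignment and can split reads between similar genes, R 4.0.5 and edgeR 3.36.0, and name the build GRCh38; that is a human build, while the symbols are mouse symbols (18844 of 19069 matched mouse annotation), so no coordinates of the authors' were used. The deposited table holds, per gene, a linear signal in CPM after a scaling that leaves column sums between 929338.3 and 1072649.8; 1 of its 19070 entries has no symbol and was left out. Depth, 20677700 to 25842800 assigned reads per library, was recovered from the value of 1 read. Of the deposited values above 0, 98.2% to 98.8% per library were whole multiples of it (within 0.05 reads); the others were fractions of reads, among low values above all, and a count test was not used. A count of 0 was given an upper limit of 3 reads, and intervals from it cover counting error only.

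Values were taken as log2(CPM + 0.5) and tested with limma 3.58.1 in R 4.3.3 (statmod 1.5.0) for the 13297 genes that reached 1 CPM in 3 or more libraries, in a fit of 9 group means with a mean-dependent, robust prior variance. P-values are two-sided and Benjamini-Hochberg adjusted over all tested genes, with a threshold of 0.05; fold changes understate those of genes near 0. Irradiated groups were compared as the mean of FLASH and standard groups, in each state and averaged over the 3 states. Tables and figures were made with Python 3.11.15, pandas 2.3.3, numpy 2.4.6 and matplotlib 3.10.9. Alternatives were pseudocounts of 0.1 and 1, other filters, only the groups compared, each library left out, a replicate block, and the sets without the 5 libraries at odds with their labels or without replicate 1. The 7 genes and the companion and marker lists were chosen with earlier results of these data known, and none of their counts is independent evidence. All 7 genes were named in each comparison, with up to 2 called genes per direction of each companion list for LPS, IL-4 and irradiation, chosen by fold, and for each of the 7 the 3 genes of most similar profile. A few genes that these rules would name are not reported here.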

Additional observations from a re-analysis of the deposited data

How the results depend on the processing

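Over the 90 reported gene values, none of 13 that passed changed direction under any alternative run; of 900 values under alternatives other than single left-out libraries, 826 kept direction and call, 1 lost and 47 gained its call, and 26 turned direction. Counts of the 7 genes called moved as follows. Without the 5 libraries at odds with their labels, the count was 5 for LPS and 3 for IL-4 in non-irradiated cells (2 and 1 over all 27 libraries), 3 for the irradiated mean of states (1), 2 in M1 (0), 2 in M2 (1), and 5 for LPS and 5 for IL-4 in irradiated cells (0 and 0). With replicates 2 and 3 only, it was 3 for IL-4 in non-irradiated cells, 3 for the irradiated mean, 2 in M1, and 5 and 5 for the responses of irradiated cells. Fitted on only the groups compared, it was 2 for IL-4 in non-irradiated cells and 0 for irradiation in M2, where Cd80 had an adjusted p of 0.054 by limma. The cause was not tested.

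The replicate numbers were not taken to pair the libraries: the titles give each number a code shared by all 9 groups but not what it marks, and same-numbered deviations had a median r of -0.1 (-0.852 to 0.783) over 27 libraries and -0.122 (-0.297 to 0.143) over 22. With a replicate block no call among the 90 values changed over 27 libraries; Cd80 over the irradiated mean had an adjusted p of 6.04e-05 by limma. An alternative added after seeing the data, the block without the 5 libraries, gave 5 for LPS, 3 for IL-4, 3 for the irradiated mean, 3 in M1, 2 in M2, and 5 and 5 for the responses of irradiated cells.

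Leaving out each library in turn, the counts ranged from 1 to 3 for LPS and 0 to 1 for IL-4 in non-irradiated cells, 0 to 1 for irradiation in M0, 0 to 1 in M1, and 0 to 2 for each response of irradiated cells. Log2 values that crossed 0, none of them a call, were for LPS in non-irradiated cells Pdcd1lg2 (-0.14 to 0.68) and Icosl (-0.64 to 0.73); for the irradiated mean Cd274 (-0.25 to 0.078) and Icosl (-0.28 to 0.25); in M0 Cd274 (-0.29 to 0.20), Pdcd1lg2 (-0.35 to 0.77) and Icosl (-1.26 to 0.10); in M1 Pdcd1lg2 (-0.95 to 0.43) and Icosl (-0.33 to 0.48); and in M2 Icosl (-0.16 to 1.005). For FLASH against standard they were Cd86 (-0.38 to 0.40), Cd40 (-0.38 to 0.23), Cd274 (-0.24 to 0.42), Pdcd1lg2 (-0.49 to 0.55), Icosl (-0.73 to 0.20) and Cd200r1 (-0.17 to 0.088). In irradiated cells they were Pdcd1lg2 with LPS (-1.09 to 0.48), and Cd86 (-0.66 to 0.33), Icosl (-1.12 to 0.042) and Cd200r1 (-0.27 to 0.058) with IL-4, and for the LPS interaction Pdcd1lg2 (-1.34 to 0.23) and Icosl (-0.0066 to 1.36).

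Values that turned direction elsewhere, again none called, were with a pseudocount of 1 Icosl in the irradiated mean (0.010), Pdcd1lg2 in M1 (0.052) and Cd86 with IL-4 in irradiated cells (0.0016), and with 0.1 Pdcd1lg2 for FLASH against standard (0.081). Without the 5 libraries they were, for irradiation, Cd274 (-0.29) and Pdcd1lg2 (-0.35) in M0 and Cd86 (-0.45), Cd40 (-0.090) and Icosl (-0.84) in M2; Pdcd1lg2 for FLASH against standard (0.061); Cd200r1 with IL-4 in irradiated cells (0.25); Cd40 (0.068) and Cd200r1 (-0.030) in the LPS interaction and Icosl (-0.39) in that with IL-4. With replicates 2 and 3 only they were Pdcd1lg2 with LPS (-0.067); Cd274 (-0.44) and Pdcd1lg2 (-0.61) in M0; Cd86 (-0.34), Cd40 (-0.0040) and Icosl (-1.02) in M2; Pdcd1lg2 (0.049) and Cd200r1 (0.0086) for FLASH against standard; Cd200r1 with IL-4 in irradiated cells (0.26); Cd80 (0.035) and Cd200r1 (-0.054) in the LPS interaction and Icosl (-0.19) in that with IL-4. The cause was not tested.

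Counts over all tested genes moved more. Without the 5 libraries, against all 27, limma called 4610 against 2315 genes for LPS and 3455 against 1307 for IL-4 in non-irradiated cells, 3003 against 1641 for the irradiated mean, 1460 against 536 in M0, 1300 against 692 in M1, 918 against 399 in M2, 1902 against 1027 for FLASH, 2382 against 1048 for standard irradiation, 4906 against 147 for LPS and 3425 against 867 for IL-4 in irradiated cells, and 266 against 37 for the LPS interaction. Only the groups compared gave 3897 for LPS in non-irradiated cells, 1012, 211 and 14 in M0, M1 and M2, and 0 and 461 for the responses of irradiated cells. The replicate block gave 321, 427 and 226 in M0, M1 and M2, 0 and 453 for those responses and 17 for the LPS interaction. Replicates 2 and 3 gave 2434 for IL-4 in non-irradiated cells, 4474 and 3077 for those responses and 69 for the LPS interaction. No filter and a filter of 5 CPM gave 57 and 225 for LPS in irradiated cells and 63 and 23 for the LPS interaction, and a pseudocount of 0.1 gave 17 for the same interaction; that with IL-4 moved between 0 and 18 around 6. Single left-out libraries moved them between 907 and 2744 for LPS, 582 and 1590 for IL-4, 217 and 617 in M0, 245 and 876 in M1, 130 and 544 in M2, and 0 and 2743 for LPS in irradiated cells.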
